A study of Mus musculus with 24 samples.

Results

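The 86 genes described here are the cytosolic ribosomal protein genes of a mouse RNA sequencing table with 23479 genes. They were taken by symbol, as every row that begins with Rpl or Rps followed by a digit, a or p, without pseudogene symbols (those containing -ps) and without the ribosomal S6 kinases (Rps6k), which left out 16 symbols of the pattern. Of the 86, 77 are core ribosomal proteins, 46 of the large subunit and 31 of the small subunit. Another 8 are paralogs (Rpl3l, Rpl7l1, Rpl10l, Rpl22l1, Rpl36al, Rpl39l, Rps4y2 and Rps27l), and Rps19bp1 encodes a protein that binds RPS19 and is not itself a ribosomal protein. Rps4y2 is the gene that RefSeq now calls Rps4l, and it was matched by that synonym, whereas the other 85 matched by symbol. The genes lie on 19 chromosomes.

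Cytosolic ribosomes translate messenger RNA in the cytoplasm. The small subunit reads the message, and the large subunit joins the amino acids. The proteins are made in step with one another because each ribosome needs a copy of nearly all of them, and their messages typically begin with a short run of pyrimidines, the TOP motif, through which the mTOR kinase and the RNA-binding protein LARP1 control their translation. Cells that grow or divide make many ribosomes, and neutrophils are known for carrying few of them once mature. A few ribosomal proteins have further roles, and some have paralogs that replace them in particular tissues.

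The 24 libraries came from myeloid-derived suppressor cells (MDSCs), a mixed set of immature myeloid cells that accumulates when a tumour grows, sorted from spleens of mice with B16 melanoma. Monocytic cells (M-MDSC) and polymorphonuclear cells (PMN-MDSC, which resemble neutrophils) were each taken from 4 kinds of mouse, with 3 libraries in each of the 8 groups. The mice were C57BL/6 (WT) or B6.129S2-Il6tm1Kopf/J (IL-6KO), a strain with a germline disruption of the cytokine gene Il6, and each was either untreated or lymphodepleted with cyclophosphamide and fludarabine. All of them carried tumours above 25 mm2, and spleens were taken 7 days after treatment. The sources used here state neither the age of the mice nor whether equally numbered libraries of the cell types came from 1 animal. Il6 itself went against the genotype label, with normalized counts of 16.2 to 220 in the libraries labelled KO and 0 to 7.20 in those labelled WT. The table does not say which exons those reads came from, so the comparisons of genotype below are comparisons of labels.

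The values are normalized counts, that is, read counts divided by a factor for the depth of each library. Libraries held 3249647 to 11193088 reads, of which the ribosomal RNA precursor Rn45s took 2.94 to 19.8%. The cell type markers followed the sort. The summed monocyte markers (8 genes) ran from 20293 to 32928 in M-MDSCs and from 2330 to 5813 in PMN-MDSCs, and the summed neutrophil markers (9 genes, Ly6g not among the rows) from 3405 to 36890 and from 127964 to 421941. Haemoglobin genes Hba-a1 and Hbb-bs were at 0 in all libraries. In M-MDSCs, 4 libraries stood apart for the genes described here: lymphodepleted WT replicate 1, untreated KO-labelled replicates 1 and 2, and lymphodepleted KO-labelled replicate 3. They had the lowest share of Rn45s (6.07 to 8.50%, against 11.1 to 19.8% in the other 8) and the most reads (9614895 to 11193088, against 7237462 to 8910592). In 44 of 75 core genes all 4 lay above the other 8 libraries, against 2.71% of the 11570 genes tested in M-MDSCs, and in 0 of the 75 did all 4 lie below. In PMN-MDSCs, untreated KO-labelled replicate 2 was the highest of 12 libraries for 57 of 75 core genes, against 7.05% of all 12971 genes tested. These libraries of both cell types were picked after the values were seen, so their excess over all genes is a description and no test. For results that moved with these libraries, values without them are given where they were computed.

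The bases around the annotated start site are shown for members that the results turn on, because the TOP motif lies there. Each window has 15 bases before the start and the first 15 bases of the first annotated exon, from RefSeq on GRCm38.p6, and capitals mark the longest run of C and T on the gene's own strand that reaches within 5 bases of the start. Rpl35, Rps15a, Rps4x and Rpl36a were among the members with the largest difference between the cell types. Rps9 and Rplp2 were among the core members with the smallest, Rpl22l1, Rpl36al and Rpl7l1 are paralogs, and Rpl12 and Rpl27a were called in a comparison of labels and of treatment.
Rpl35: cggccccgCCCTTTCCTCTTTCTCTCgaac
Rps15a: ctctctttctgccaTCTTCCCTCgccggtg
Rps4x: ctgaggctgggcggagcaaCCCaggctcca
Rpl36a: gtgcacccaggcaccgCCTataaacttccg
Rps9: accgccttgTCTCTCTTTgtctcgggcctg
Rplp2: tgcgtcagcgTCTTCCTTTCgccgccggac
Rpl12: ggcggagcaggatccgTCTTTTCggctttc
Rpl27a: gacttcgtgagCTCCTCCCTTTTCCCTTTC
Rpl22l1: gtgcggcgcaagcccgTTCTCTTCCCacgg
Rpl36al: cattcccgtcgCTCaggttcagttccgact
Rpl7l1: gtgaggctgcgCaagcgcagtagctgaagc
The windows are chr2:39005117-39005146 (minus strand) for Rpl35, chr7:118116133-118116162 (minus) for Rps15a, chrX:102189377-102189406 (minus) for Rps4x and chrX:134585639-134585668 (plus) for Rpl36a. They are chr7:3704026-3704055 (plus) for Rps9, chr7:141447636-141447665 (plus) for Rplp2, chr2:32961697-32961726 (plus) for Rpl12 and chr7:109519180-109519209 (plus) for Rpl27a. For the paralogs they are chr3:28805493-28805522 (plus) for Rpl22l1, chr12:69184053-69184082 (minus) for Rpl36al and chr17:46782642-46782671 (minus) for Rpl7l1.

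A run of at least 8 pyrimidines reached the start at 24 of the 77 annotated starts of the 65 members with an entry (31.2%), at 22 of the 67 starts of core genes (32.8%) and at 3081 of all 32851 starts (9.38%). As a description without a test, core genes with and without the run had similar differences between the cell types. In untreated WT, the 22 core genes with such a run had a median log2 difference between M-MDSC and PMN-MDSC of 1.61 and the 34 without one had 1.68. In lymphodepleted KO-labelled mice these medians were 2.12 and 2.10. Rpl35 and Rps9, at opposite ends of the cell type comparison, both carried a run, and Rps4x and Rpl36a, with large differences, had only 3 pyrimidines at the annotated start. An annotated start can lie some bases from the site a cell uses, and a match is a description of the letters in the window.

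The ribosomal protein genes took a larger share of the counts in every M-MDSC library than in any PMN-MDSC library. With Rn45s left out, the share in M-MDSCs was 1.65 ± 0.0993% (SD, n = 3) in untreated WT, 2.09 ± 0.226% in lymphodepleted WT, 2.25 ± 0.0766% in untreated KO-labelled and 2.13 ± 0.335% in lymphodepleted KO-labelled mice. The PMN-MDSC groups, in the same order, gave 0.385 ± 0.0331%, 0.512 ± 0.0929%, 0.609 ± 0.145% and 0.376 ± 0.0311%. Without the 4 low-Rn45s libraries the shares were 1.91 and 2.01% in lymphodepleted WT, 2.17% in untreated KO-labelled and 1.93% in both libraries left of lymphodepleted KO-labelled M-MDSCs, and without replicate 2 both untreated KO-labelled PMN-MDSC libraries had 0.525%. The lowest M-MDSC library had 1.58% and the highest PMN-MDSC library 0.777%. Large subunit genes together exceeded small subunit genes in every library, by 1.14 to 1.41 times in M-MDSCs and 1.03 to 1.25 times in PMN-MDSCs. These are sums over 46 large and 31 small subunit core genes, so they do not show a higher level per gene. Per kilobase of annotated exon the small subunit genes had the higher median normalized count. It was 791 against 528 for the large subunit in M-MDSCs and 234 against 173 in PMN-MDSCs. That length joins the exons of all annotated transcripts, so it can exceed the length of the message. For Rpl12 it was 3598 bases, although the RefSeq gene spans 2334. Levels per kilobase therefore depend on the annotation.

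**Figure D1:**
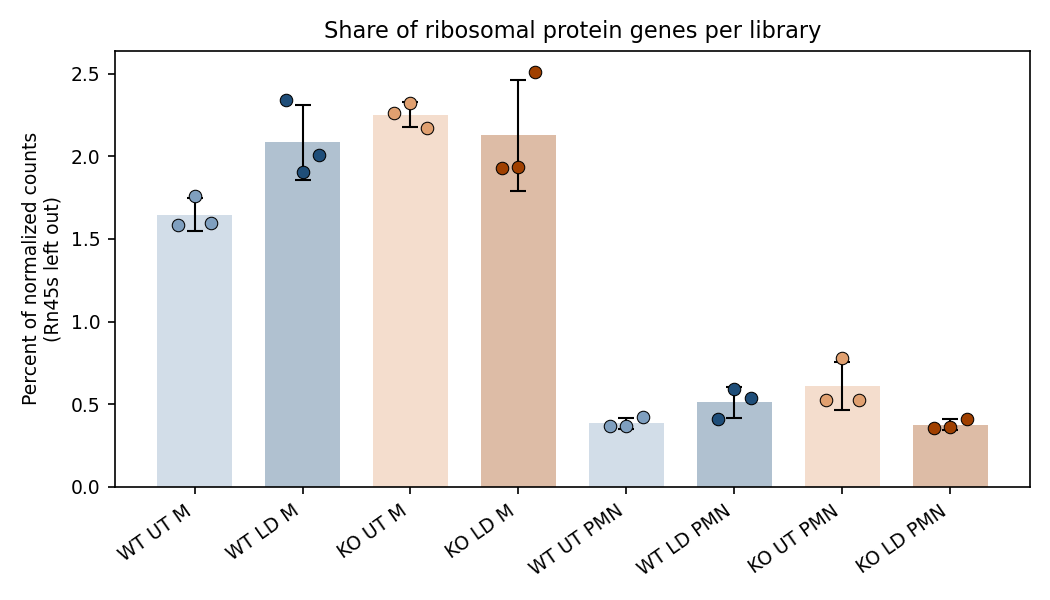
Percent of each library's normalized counts taken by the 86 genes, Rn45s left out (y axis), in the 8 groups (x axis). Points are libraries and bars are the mean and SD of 3. The M-MDSC libraries lie between 1.58 and 2.51% and the PMN-MDSC libraries between 0.355 and 0.777%.

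Ribosomal protein genes were higher in M-MDSCs than in PMN-MDSCs in all 4 kinds of mouse, and most members passed the test each time. With limma on log2(normalized count + 1) and Benjamini-Hochberg adjustment over 13457 genes, 73 of 82 tested members were called higher in M-MDSCs in untreated WT, 74 in lymphodepleted WT, 73 in untreated KO-labelled and 75 in lymphodepleted KO-labelled mice. Of all genes tested, 22.2%, 19.4%, 20.3% and 23.8% were called higher in those comparisons, 28.3%, 19.9%, 23.6% and 23.6% lower, and 50.5%, 39.3%, 43.8% and 47.4% in either direction. The median log2 difference of the members was 1.63, 1.67, 1.53 and 2.08, against −0.08, 0.07, 0.05 and 0.05 over all genes. Both subunits took part: in untreated WT 42 of 44 large and 29 of 31 small core genes were called higher, with medians of 1.68 and 1.60, and in lymphodepleted KO-labelled mice 43 and 30, with medians of 2.10 and 2.10. Across the 4 comparisons, 69 members were called higher every time, 5 in 3 comparisons, 2 in 2 and 6 in 0. In 59 members every M-MDSC library lay above every PMN-MDSC library, against 8.38% of all genes tested.

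Without the 4 M-MDSC libraries of low Rn45s share, 72, 71, 56 and 71 members were called in the 4 comparisons, and the median in untreated KO-labelled mice was 1.30 with a lone M-MDSC library left there. In CPM (reads scaled to the same total in each library) without Rn45s the median of all genes moved to 0.56 to 0.67, and the members' medians exceeded it by 1.72, 1.62, 1.50 and 2.05. In bulk RNA of sorted cells, fewer cells of a type and less RNA per cell cannot be told apart, and the values are relative to the rest of each library.

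**Figure D2:**
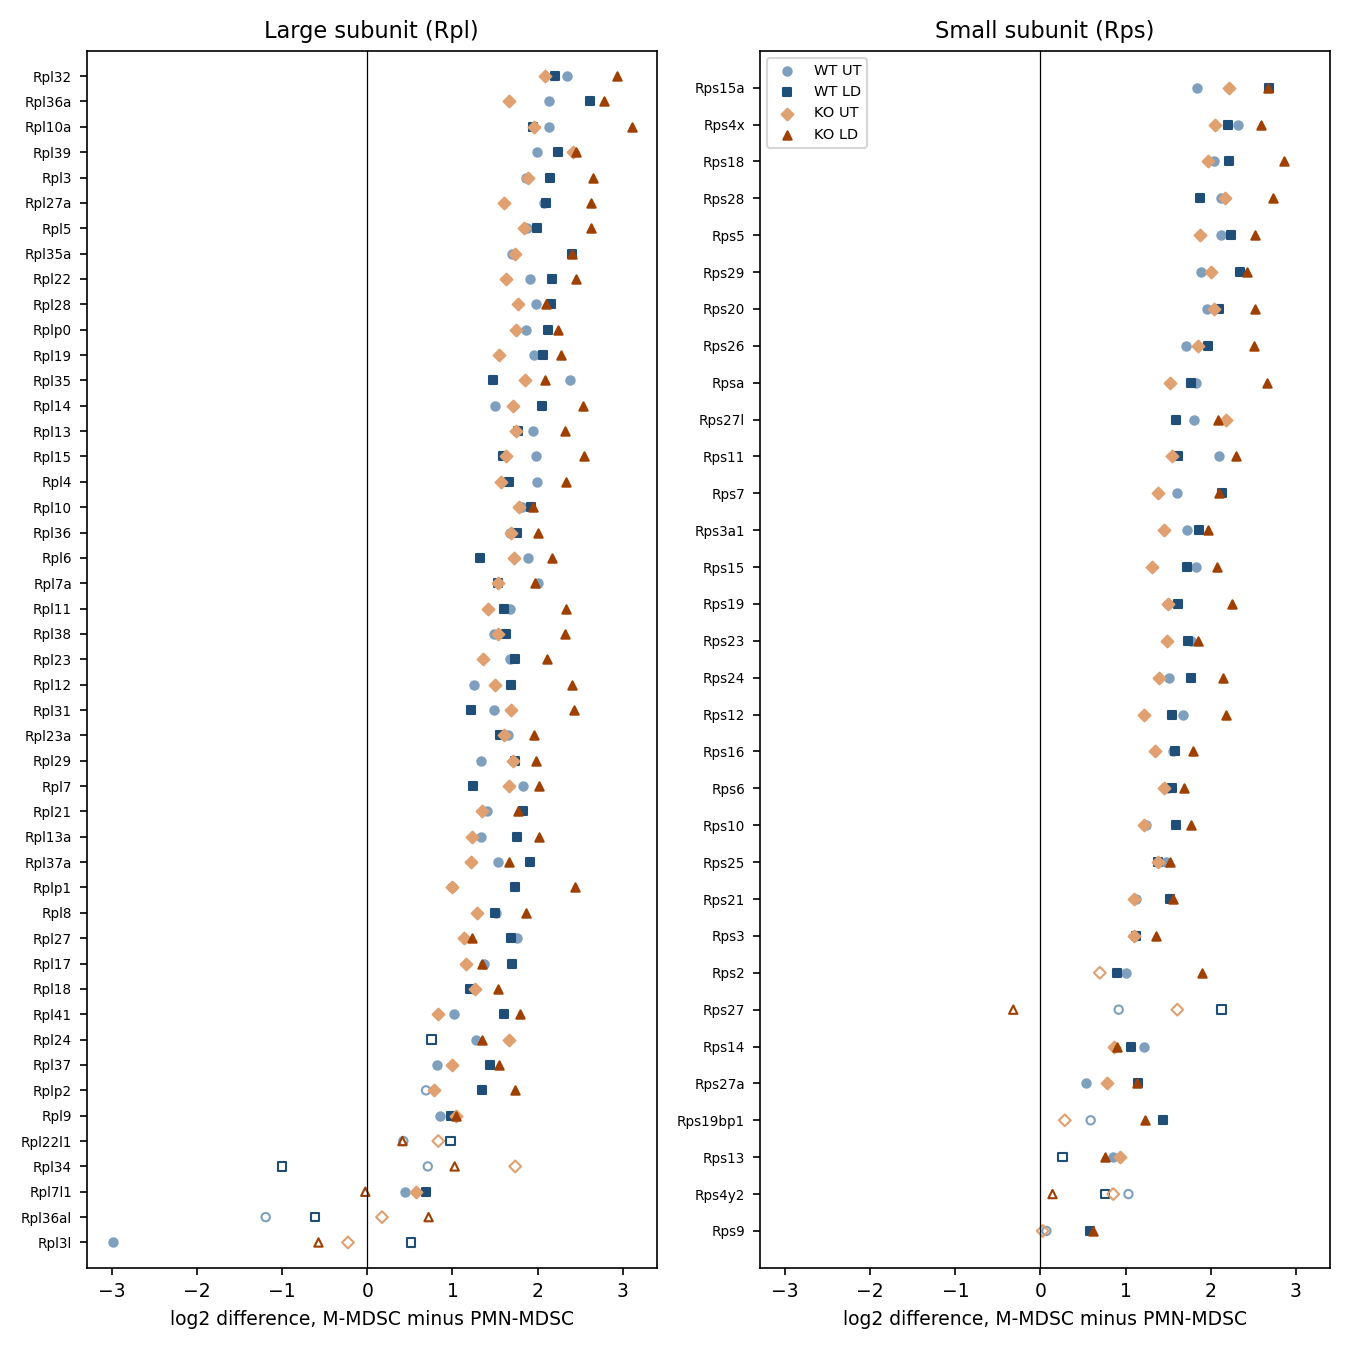
Log2 difference in normalized count between M-MDSC and PMN-MDSC (x axis) for each tested gene but 3 (y axis), with large subunit symbols on the left and small subunit symbols, including Rps19bp1, on the right. Filled marks passed the test at an adjusted p under 0.05 and open ones did not. Nearly all marks lie right of 0, and the lymphodepleted KO-labelled triangles are often the rightmost.

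The largest differences reached about the size of Rpl10a in lymphodepleted KO-labelled mice. Rpl10a encodes a large subunit protein. Its normalized counts were 636, 591 and 647 in lymphodepleted KO-labelled M-MDSCs and 73.4, 63.7 and 77.4 in the PMN-MDSCs, a log2 difference of 3.11 ± 0.28 (SE, adjusted p = 6.89e-09). The groups did not overlap. In the same mice Rpl32 differed by 2.93 ± 0.22, the small subunit gene Rps18 by 2.87 ± 0.30 and Rpl36a by 2.78 ± 0.28. In untreated WT the leading members were Rpl35 at 2.38 ± 0.35, Rpl32 at 2.35 ± 0.22 and the X-linked small subunit gene Rps4x at 2.32 ± 0.26. Rps15a at 2.68 ± 0.44, Rpl36a at 2.61 ± 0.28, Rpl35a and Rps29 led in lymphodepleted WT, and Rpl39 at 2.42 ± 0.56, Rps15a, Rps28 and Rpl32 in untreated KO-labelled mice.

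Members with known further roles followed the same direction. Rpl5 and Rpl11, which with 5S ribosomal RNA form the particle that restrains MDM2 and so raises p53, were higher in M-MDSCs by 1.88 ± 0.23 and 1.68 ± 0.19 in untreated WT. Rpsa, a small subunit protein that was first described as a laminin receptor, ran from 4667 to 5351 in untreated WT M-MDSCs and from 1287 to 1689 in the PMN-MDSCs, a log2 difference of 1.82 ± 0.19 (adjusted p = 5.59e-08). Rps6, the protein that S6 kinase phosphorylates, differed by 1.50 ± 0.19. Rps19, whose human counterpart is mutated in Diamond-Blackfan anaemia, differed by 1.49 ± 0.16, and Rps3, which also works in DNA repair, by 1.12 ± 0.19. Rpl13a, a part of the interferon-responsive GAIT complex, differed by 1.33 ± 0.18, Rpl38 by 1.49 ± 0.22 and Rps25, which some viral RNAs need to start translation, by 1.47 ± 0.35. All 9 passed the test in all 4 comparisons.

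The P stalk, which recruits the GTPases of translation to the large subunit, was uneven. Rplp0, the base of the stalk, differed between the cell types by 1.87 ± 0.28 in untreated WT and 2.24 ± 0.28 in lymphodepleted KO-labelled mice. Rplp1 differed by 1.0 ± 0.16 and 2.44 ± 0.16 in the same mice. Rplp2 differed by 0.69 ± 0.29 in untreated WT, which missed the threshold (adjusted p = 0.0502), and by 1.74 ± 0.29 in lymphodepleted KO-labelled mice. Rplp2 was at 5324, 5240 and 4766 in untreated WT M-MDSCs and at 2570, 3033 and 4070 in the PMN-MDSCs. Per kilobase of annotated exon Rplp1 ranked first in both cell types, at 4259 in M-MDSCs and 1555 in PMN-MDSCs. Rps3a1 at 2860 and Rplp0 at 2826 followed in M-MDSCs. The annotated exons of Rplp1 join to only 499 bases, and the ranking depends on such lengths, so it is not an order of abundance.

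In untreated mice the core gene with the smallest difference was Rps9, whose product binds ribosomal RNA early in small subunit assembly (it was picked out after its values were seen). Rps9 was at 3473, 4086 and 3539 in untreated WT M-MDSCs and at 3329, 3552 and 3674 in the PMN-MDSCs. The groups overlapped, and the log2 difference was 0.07 ± 0.16 (adjusted p = 0.734). In untreated KO-labelled mice it was 0.03 ± 0.16. In lymphodepleted mice Rps9 was called higher in M-MDSCs, by 0.58 ± 0.16 in WT and 0.62 ± 0.16 in KO-labelled mice. Rps27a, which is made as a fusion with ubiquitin, differed by 0.53 ± 0.20 in untreated WT (adjusted p = 0.0316) and by 1.14 ± 0.20 in both lymphodepleted comparisons. The untreated WT call was lost without the 4 low-Rn45s libraries (adjusted p = 0.0553) and without untreated WT M-MDSC replicate 2 or 3 or PMN-MDSC replicate 1 or 2.

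**Figure D3:**
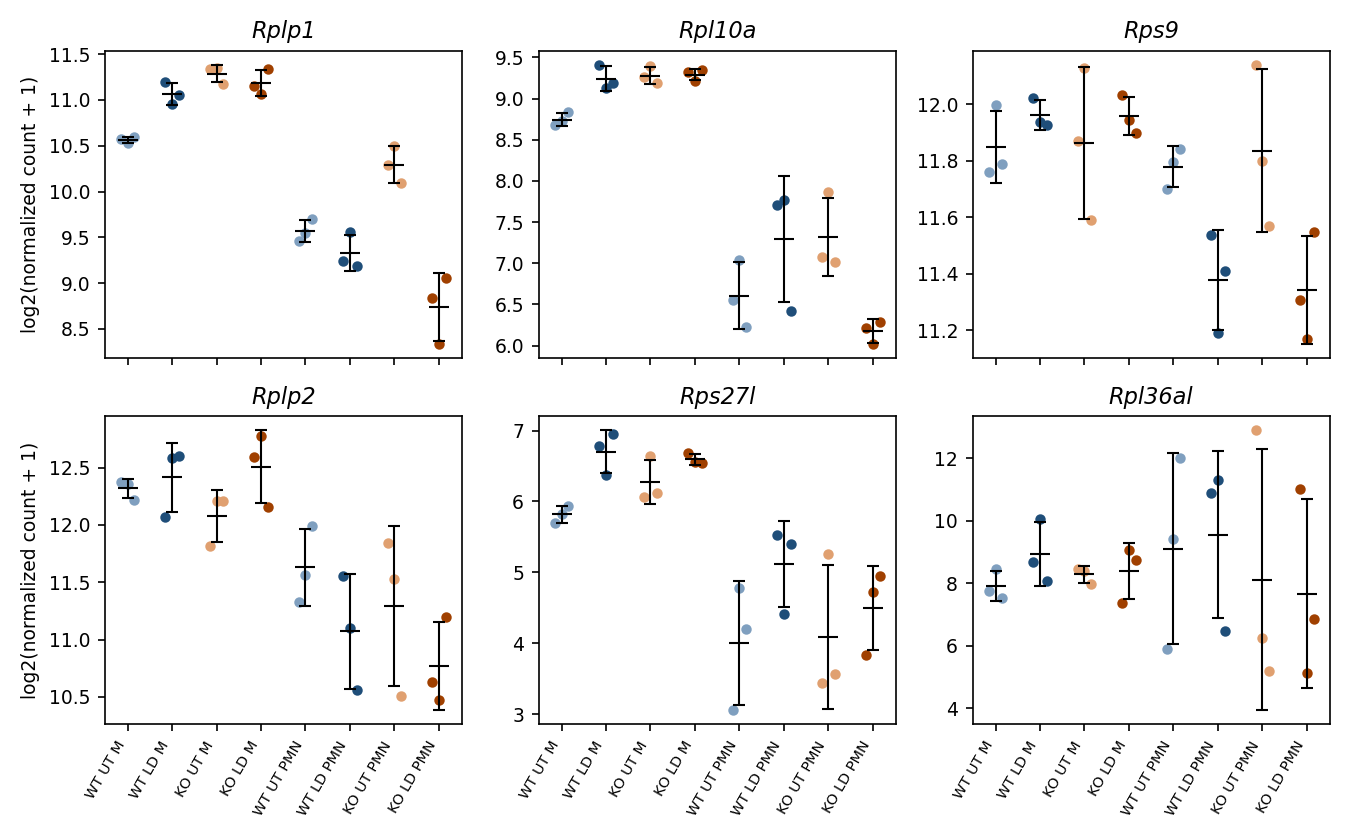
Log2(normalized count + 1) of 6 members (y axes, which differ between panels and do not start at 0) in the 8 groups (x axis). Points are libraries, and bars are the mean and SD of 3. Rplp1 and Rpl10a separate the cell types in every library, Rps9 does not in untreated mice, and Rpl36al spreads widely among PMN-MDSC libraries.

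Of the 6 paralogs that could be tested, Rps27l was called higher in M-MDSCs in all 4 comparisons, Rpl7l1 in 3 and the other 4 in 0. Rps27l is a p53-responsive paralog of Rps27, and it stood at 51.0, 55.8 and 60.4 in untreated WT M-MDSCs against 7.34, 26.4 and 17.4 in the PMN-MDSCs (1.81 ± 0.51). Rpl7l1, a nuclear paralog of Rpl7 that acts in assembly of the large subunit, was called in 3 comparisons with small differences (0.44 to 0.69). The untreated WT call (0.44 ± 0.18, adjusted p = 0.0444) was lost in 12 of 24 fits that left out a library, among them each of the 6 untreated WT libraries, and without the 4 low-Rn45s (adjusted p = 0.0823) or the 3 shallowest PMN-MDSC libraries. It stood at −0.02 ± 0.18 in lymphodepleted KO-labelled mice, where CPM without Rn45s gave 0.56. Its parent Rpl7 differed by 1.24 to 2.02. Rpl22l1, a paralog of the RNA-binding protein Rpl22, differed by 0.41 to 0.98 and was called in 0 comparisons, while Rpl22 differed by 1.63 to 2.45 and was called in all 4. Rps4y2 differed by 0.14 to 1.03 without a call and lay far below its parent Rps4x, at 12.2 to 49.1 in M-MDSCs. A difference between paralog and parent in these contrasts was not tested.

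Rpl36al, an autosomal copy of the X-linked Rpl36a, was the least repeatable member. It was at 213, 352 and 185 in untreated WT M-MDSCs. In PMN-MDSCs it was at 58.7, 685 and 4111 in untreated WT, 1897, 2507 and 88.2 in lymphodepleted WT, 7618, 74.5 and 35.6 in untreated KO-labelled, and 2083, 34.0 and 114 in lymphodepleted KO-labelled mice. Libraries of the same group thus differed far more than the groups did, and no comparison called it. Its parent Rpl36a was at 83.2, 98.4 and 155 in untreated WT PMN-MDSCs. The table does not say how reads shared by near-identical copies were counted, and 60 of the 86 members have named pseudogenes in the GENCODE annotation, so levels of single members are uncertain to that extent.

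Rpl3l, the paralog of Rpl3 known from heart and skeletal muscle, ran the other way at very low counts. It was at 12.2, 14.4 and 10.9 in untreated WT PMN-MDSCs and at 0, 0 and 3.77 in the M-MDSCs. The call was lower in M-MDSCs, with a fitted log2 difference of −3.0 ± 0.72 that depends on the pseudocount at such counts. Those PMN-MDSC libraries were the only WT ones to reach the filter level, so this call is a description only. Rpl10l was at 0 in every M-MDSC library and reached 16.8 in a PMN-MDSC library, and Rpl39l reached 4.35. Among core genes Rpl26 was listed at 0 in all 24 libraries, Rpl30 did not exceed 5.42, Rps27 27.5 and Rpl34 66.0, although 74 members were above 100 in every M-MDSC library. Rpl10l, Rpl26, Rpl30 and Rpl39l were too low to be tested in either cell type, and Rpl3l was also too low in M-MDSCs alone.

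In WT M-MDSCs the share of members called after lymphodepletion was below that of all genes in both directions. Of 81 tested, 5 were called higher and 1 lower, against 18.3% of all genes called in either direction, 9.52% higher and 8.82% lower. The members' median was 0.27 against −0.07 over all genes, 76 of 81 lay above 0, and 22 had an unadjusted p under 0.05. Among all genes, at least the 18.3% called in either direction had such a p here. Here and below, the share of all genes is not given for counts above or below 0, counts by unadjusted p or calls in alternative fits. Such counts alone therefore do not set the members apart from all genes. In 20 members all lymphodepleted libraries lay above all untreated ones, against 16.9% of all genes. The 5 were Rplp1, Rpl10a, Rps19, Rps20 and Rps27l. The large subunit median was 0.27 and the small subunit median 0.26.

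Rplp1 was at 1520, 1480 and 1550 in untreated WT M-MDSCs and at 2345, 1978 and 2124 after lymphodepletion. The groups did not overlap, and the log2 difference was 0.50 ± 0.11 (adjusted p = 0.00705). Rpl10a went from 407, 421 and 456 to 679, 559 and 582, also without overlap (0.50 ± 0.12). Rps20, a small subunit gene, went from 837, 885 and 789 to 1485, 1097 and 1428 (0.66 ± 0.16, adjusted p = 0.0098). Rps27l rose from 51.0, 55.8 and 60.4 to 109, 82.0 and 123 (0.88 ± 0.22), and Rps19 rose from 681, 754 and 773 to 1134, 877 and 948 (0.42 ± 0.12, adjusted p = 0.0278). The member called lower was Rpl34, outside the level set for naming genes, with 33.0, 43.3 and 45.3 before and 8.32, 26.3 and 18.1 after (−1.28 ± 0.40, adjusted p = 0.0411). Among members at 100 or more in the higher group, those far from the median without a call included Rpl36al (1.02 ± 0.47) above it and Rps14 (−0.15 ± 0.13), Rps21 (−0.07 ± 0.15) and Rpl38 (−0.03 ± 0.14) below it.

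These calls moved with single libraries. Without the 4 low-Rn45s libraries 2 members were called, Rps20 and Rplp1, the median was 0.14, and Rpl10a missed the threshold (adjusted p = 0.0578). Without untreated WT replicate 1 or lymphodepleted WT replicate 3 there were 3 calls. Without lymphodepleted WT replicate 2 there were 12, and without lymphodepleted KO-labelled replicate 3 there were 10. No share of all genes is given for these refits. Markers of other cells moved in the same comparison: all 10 genes of dividing cells were called higher, with sums of 749 to 835 before and 15245 to 25561 after. Neutrophil markers were called higher in 5 of 9 genes, with sums of 3614 to 3805 before and 9396 to 36890 after. B cell and NK cell markers were called lower in 8 of 9 genes each, with NK sums of 1765 to 2086 before and 263 to 517 after. Their part in the result was not tested.

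In KO-labelled M-MDSCs lymphodepletion gave no call in the members with limma (0 of 81, against 11.6% of all genes, 6.11% higher and 5.52% lower), 16 had an unadjusted p under 0.05, edgeR called 0 and DESeq2 called 1. Their median was −0.20 against −0.02 over all genes, and 61 of 81 lay below 0. Rplp1 was at 2585, 2612 and 2317 before and 2270, 2138 and 2584 after, with the groups overlapping (−0.11 ± 0.11). Among members at 100 or more in the higher group, those farthest below the members' median were Rpl39 (−1.16 ± 0.43), Rpl29 (−1.07 ± 0.42) and Rpl31 (−0.99 ± 0.49). Rpl31 was at 854, 659 and 379 before and at 237, 184 and 625 after, so that replicate 3 of each group lay among the libraries of the other group. Farthest above at that level were Rps2, a small subunit protein at the messenger RNA entry (0.90 ± 0.29, adjusted p = 0.0592), Rplp2 (0.43 ± 0.18) and Rps12 (0.28 ± 0.12).

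The result turned on lymphodepleted KO-labelled replicate 3, which is among the 4 libraries of low Rn45s share. Without it 23 members were called, 21 lower and 2 higher. The share of all genes called in that refit is not given, so this count does not set the members apart from all genes. Without all 4 of those libraries 1 was called, lower, and without untreated KO-labelled replicate 3 or lymphodepleted WT replicate 1 there were 3 and 1 calls. All 9 B cell, all 9 NK cell and 9 of 12 T cell markers were called lower here, with NK sums of 6925 to 10093 before and 582 to 1449 after, and all 10 genes of dividing cells were called higher. The neutrophil marker sums were 3405 to 3922 before and 7289 to 24548 after. Their part in the result was not tested.

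In WT PMN-MDSCs lymphodepletion gave calls for 2 of 82 tested members, against 10.9% of all genes, 4.14% higher and 6.73% lower. The share of members called was again below that of all genes. Rpl6, a large subunit protein that is also recruited to damaged DNA, was at 290, 215 and 257 before and 324, 589 and 565 after, without overlap (0.92 ± 0.27, adjusted p = 0.0423). Rpl3l had 27 reads in the untreated libraries together and 0 in the lymphodepleted ones, which makes it at least 10.3-fold lower against a floor of 3 reads over the group (adjusted p = 0.0282). In WT, Rpl3l reached the filter level of 10 only in the untreated PMN-MDSCs, the group where it is high. Its call was lost with no filter and is a description only. The median was 0.21 against −0.20 over all genes, and 56 of 82 lay above 0. In 5 members the lymphodepleted libraries lay wholly above the untreated ones, against 12% of all genes. Among members at 100 or more in the higher group, Rpl35 (1.05 ± 0.42) and Rpl31 (0.79 ± 0.43) lay farthest above the median besides Rpl6, and Rplp2 (−0.56 ± 0.33), Rps27a (−0.51 ± 0.25) and Rps21 (−0.47 ± 0.31) farthest below.

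Both calls were fragile. Without any single untreated WT library or lymphodepleted WT replicate 3 there were 0 calls, without lymphodepleted WT replicate 1 there were 6, and without lymphodepleted WT replicate 2, untreated KO-labelled replicates 2 or 3 or lymphodepleted KO-labelled replicate 3 there was 1. B cell markers were called lower in 9 of 9 genes, and dividing cell markers higher in 9 of 10, with sums of 1156 to 1452 before and 7797 to 28265 after. Their part in the result was not tested.

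In KO-labelled PMN-MDSCs the members lay lower after lymphodepletion. Of 82 tested, 2 were called lower and 0 higher, against 0.224% of all genes called, all of them lower. The median was −0.76 against −0.07 over all genes, 76 of 82 lay below 0, and 51 had an unadjusted p under 0.05. In 56 members all lymphodepleted libraries lay below all untreated ones, against 9.81% of all genes. The large subunit median was −0.88 and the small subunit median −0.68.

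Rplp1 and Rpl27a were the 2 called members. Rplp1 was at 1251, 1447 and 1090 in untreated KO-labelled PMN-MDSCs and at 458, 321 and 531 after lymphodepletion, without overlap (−1.55 ± 0.22, adjusted p = 0.00551). Rpl27a, a large subunit gene, fell from 386, 502 and 439 to 103, 153 and 216 (−1.54 ± 0.29, adjusted p = 0.0369). Rpl31 lay lower still at −1.73 ± 0.43 but missed the threshold (adjusted p = 0.157), and Rpsa, at 1887, 2772 and 1909 before and 845, 1177 and 1140 after, missed it too (−1.05 ± 0.23, adjusted p = 0.0989). Among members at 100 or more in the higher group, those farthest above the median were Rpl7l1 (0.47 ± 0.24), Rpl22l1 (0.13 ± 0.56) and Rps14 (−0.14 ± 0.24). Rps14 was at 759, 925 and 812 before and 922, 672 and 681 after, with the groups overlapping.

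The number of calls here depended on untreated KO-labelled replicate 2, the library with the highest level of most core genes. Without it 0 members were called, and the median was −0.60. There were also 0 calls without the 3 PMN-MDSC libraries of fewest reads. Without lymphodepleted WT replicate 3 there were 8 calls. There was 1 call, for Rplp1, without any single untreated WT library, untreated KO-labelled replicates 1 or 3, or lymphodepleted KO-labelled replicates 1 or 2. With all 24 libraries in a common fit 25 members were called lower, and DESeq2 called 17 lower. The share of all genes called in those 2 fits is not given, and the 0.224% above does not apply to them. B cell markers were called lower in 4 of 9 genes, the NK sums were 603 to 2148 before and 342 to 614 after, and the sums of dividing cell markers were 475 to 3953 before and 3845 to 16189 after. Their part in the result was not tested.

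**Figure D4:**
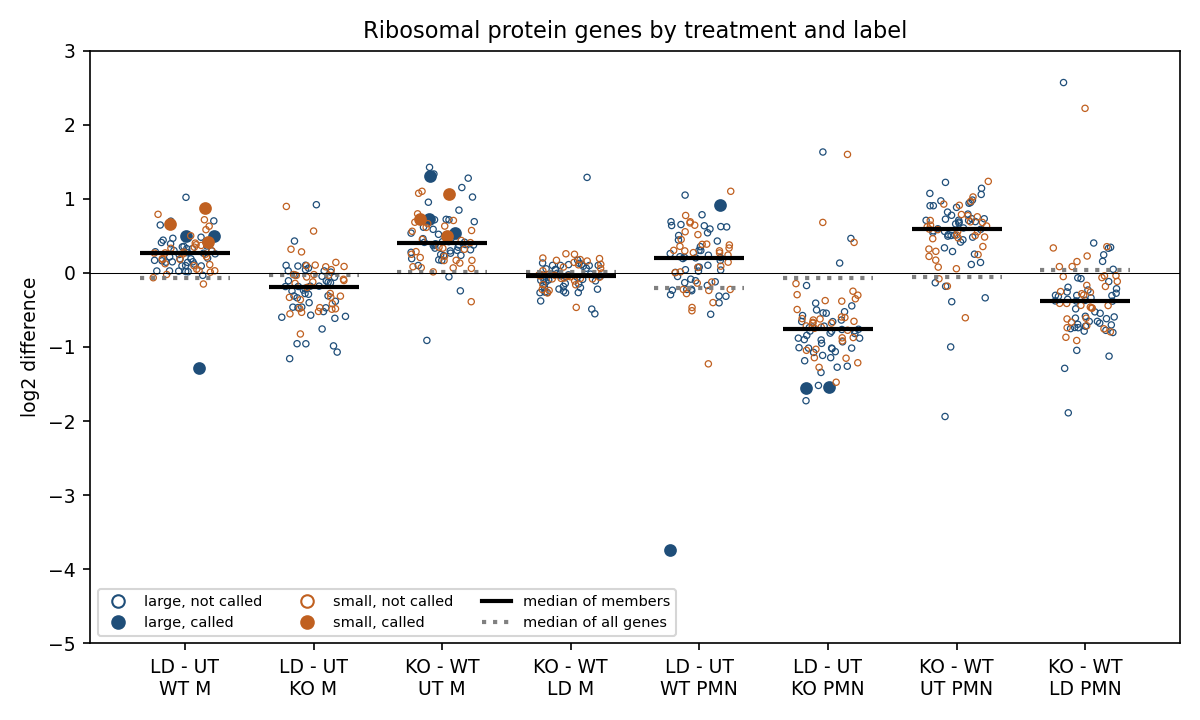
Log2 difference (y axis) of each tested gene in the 8 comparisons of treatment (LD minus UT, lymphodepleted minus untreated) and label (KO minus WT) within a cell type (x axis). Filled points passed the test, solid bars are medians of the members and dotted bars medians of all genes. The members' median is farthest from that of all genes in KO-labelled PMN-MDSCs, at −0.76 for treatment.

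Between the labels, a few members were higher in untreated M-MDSCs labelled KO than in those labelled WT. Of 81 tested members, 6 were called higher and 0 lower, against 4.03% of all genes in either direction, 2.24% higher and 1.79% lower, and the median was 0.41 against 0.01. In 57 members the KO-labelled libraries lay wholly above the WT libraries, against 16.1% of all genes, and 46 had an unadjusted p under 0.05. The 6 were Rpl10a, Rpl12, Rplp1, Rps15a, Rps19 and Rps20. The untreated WT libraries are also the control of the lymphodepletion comparison in WT, so the same 3 libraries enter both.

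Rpl12, a large subunit protein at the base of the P stalk, was at 323, 447 and 375 in WT and 1172, 879 and 806 in KO-labelled libraries (1.31 ± 0.31, adjusted p = 0.0354). Rps15a was at 459, 620 and 592 and at 1445, 1330 and 798 (1.06 ± 0.25, adjusted p = 0.0346). Both pairs of groups were without overlap. Rplp1 was at 2585, 2612 and 2317 in KO-labelled libraries, against the 1480 to 1550 of WT (0.72 ± 0.11, adjusted p = 0.00585). Rps20 differed by 0.73 ± 0.16, Rpl10a by 0.53 ± 0.12 and Rps19 by 0.50 ± 0.12.

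These calls were sensitive to libraries as well. Without the 4 low-Rn45s libraries 3 members were called, among them Rpl12 and Rplp1, and the median was 0.25, with a lone untreated KO-labelled library left that was assumed to vary like the other groups. There was 1 call without any single untreated WT library or untreated KO-labelled replicate 1, there were 3 and 2 without untreated KO-labelled replicates 2 and 3, and 14 without lymphodepleted KO-labelled replicate 3. With all 24 libraries in a common fit 0 members were called, and DESeq2 called 22. No share of all genes is given for these alternative fits. NK cell markers were called higher in 8 of 9 genes and T cell markers in 8 of 12. The NK sums were 1765 to 2086 in WT and 6925 to 10093 in KO-labelled libraries, and the T cell sums 354 to 592 and 1471 to 2424. In the same order the B cell sums were 586 to 674 and 1044 to 1781. The sums of dividing cell markers were 749 to 835 and 765 to 7708. Their part in the result was not tested.

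The remaining comparisons of labels gave no calls in the members with limma fitted within a cell type. In lymphodepleted M-MDSCs limma called 0 of 81 (0.207% of all genes, 0.156% higher and 0.0519% lower), 2 had an unadjusted p under 0.05, the median was −0.04 against 0.01, and edgeR and DESeq2 called 0. In untreated PMN-MDSCs limma, edgeR and DESeq2 called 0 of 82 (0.00771% of all genes with limma), 36 had an unadjusted p under 0.05, and the median was 0.59 against −0.05. There, 41 members had all KO-labelled libraries above all WT libraries, against 6.21% of all genes. Rplp1 was at 701, 748 and 831 in untreated WT and 1251, 1447 and 1090 in untreated KO-labelled PMN-MDSCs (0.73 ± 0.22, adjusted p = 0.933). NK marker sums were 348 to 429 in these WT and 603 to 2148 in these KO-labelled libraries, and replicate 2, the highest for most core genes, also had the highest NK, B cell (3026) and T cell (894) sums of the PMN-MDSC libraries. Their part in the result was not tested. In lymphodepleted PMN-MDSCs the 3 tools called 0 of 82 (0.0154% with limma), 17 had an unadjusted p under 0.05, the median was −0.38 against 0.04, and 17 members had all KO-labelled libraries below all WT libraries, against 4.9% of all genes. A fit of all 24 libraries called 1 member there. The NK sums were 64.2 to 272 in WT and 342 to 614 in KO-labelled libraries, and their part in the result was not tested. The median in untreated PMN-MDSCs was 0.40 without untreated KO-labelled replicate 2.

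An interaction term tested whether the change with lymphodepletion differed between libraries labelled WT and KO. For M-MDSCs it gave 0 calls with limma in 81 members (0.00864% of all genes), with a median of −0.45, 27 at an unadjusted p under 0.05, 0 called by edgeR and 1 by DESeq2. Its median was −0.34 without the 4 low-Rn45s libraries and −0.65 without lymphodepleted KO-labelled replicate 3 alone. In PMN-MDSCs limma called 0 of 82 (0% of all genes), with a median of −0.94 against 0.10 over all genes. There 44 had an unadjusted p under 0.05, edgeR called 0 and DESeq2 called 9, all lower. No share of all genes is given for edgeR and DESeq2. Rpl6 had the smallest p in PMN-MDSCs, with −1.93 ± 0.38 and an adjusted p of 0.536. Within a label, the comparisons in M-MDSCs and PMN-MDSCs share no libraries but may share mice. In WT, 54 of 81 members lay above 0 in both cell types and 3 below 0 in both, whereas in KO-labelled mice 2 lay above 0 in both and 57 below. The share of all genes is not given for these counts, and members that move together are not separate evidence. Counts without the 4 low-Rn45s libraries or untreated KO-labelled PMN-MDSC replicate 2 are not given either.

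A further interaction term compared the response of the cell types. In WT limma called 0 of 82 members (0.788% of all genes), edgeR and DESeq2 called 0 and 6 had an unadjusted p under 0.05. The median was 0.11 against 0.16 and turned to −0.13 in CPM without Rn45s. In KO-labelled mice 1 member was called, against 0.0966% of all genes (0.0372% higher and 0.0594% lower), with a median of 0.55 against 0.06 and 28 at an unadjusted p under 0.05. That member was Rplp1, for which the change with lymphodepletion was higher in M-MDSCs than in PMN-MDSCs by 1.45 ± 0.23 (adjusted p = 0.0147). The call held on leaving out each of the 24 libraries in turn, but was lost without the 4 low-Rn45s libraries (1.48 ± 0.32, adjusted p = 0.615) and with the replicate number as a block (adjusted p = 0.0505).

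Within a cell type the core genes moved together from library to library. Over the 12 M-MDSC libraries, the correlation of each core gene with the median of the others ran from −0.71 to 0.98 with a median of 0.85, as a description without a test, since all genes share the same libraries and their depth. Rps3 (0.98) and Rpl12 (0.97) were most like the rest. Rplp2 (−0.71) and Rps2 (−0.67) ran opposite to them, as did Rpl34 (−0.60), whose counts did not exceed 66.0. Over the 8 libraries without the 4 of low Rn45s share the median was 0.62 and Rps3 was at 0.97. Rplp2 was at −0.16 and Rps2 at −0.10, so the opposite course of Rplp2 and Rps2 rested on those 4. Rpl34 was the lowest over these 8 libraries, at −0.52. Rps2 was at 1548, 1939 and 2667 in untreated KO-labelled and at 3713, 5352 and 2606 in lymphodepleted KO-labelled M-MDSCs. Over the 12 PMN-MDSC libraries the correlations ran from −0.24 to 0.96 with a median of 0.77, and Rplp2 was at 0.00. Without untreated KO-labelled replicate 2 the median was 0.69.

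The size of the swing differed between members. Rps24, which was named after its values were seen, kept to 2336 to 2713 in all 12 M-MDSC libraries, a range of 0.22 on the log2 scale, whereas the median range of core genes was 0.88. Rpl39 ranged over 2.44, Rpl31 over 2.29 and Rpl29 over 2.15. Over the 8 libraries without those of low Rn45s share the median range was 0.57, and Rpl39 ranged over 1.50, Rpl31 over 1.12 and Rpl29 over 1.36. Rpl39 was at 98.9, 146 and 160 in untreated WT, 290, 96.7 and 163 in lymphodepleted WT, 466, 334 and 242 in untreated KO-labelled and 140, 85.1 and 282 in lymphodepleted KO-labelled M-MDSCs. In each of the last 3 groups the highest values were in the libraries of low Rn45s share. In PMN-MDSCs the median range was 1.58 (1.35 without untreated KO-labelled replicate 2), and Rpl9 (0.84) and Rps6 (0.84) had the smallest.

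**Figure D5:**
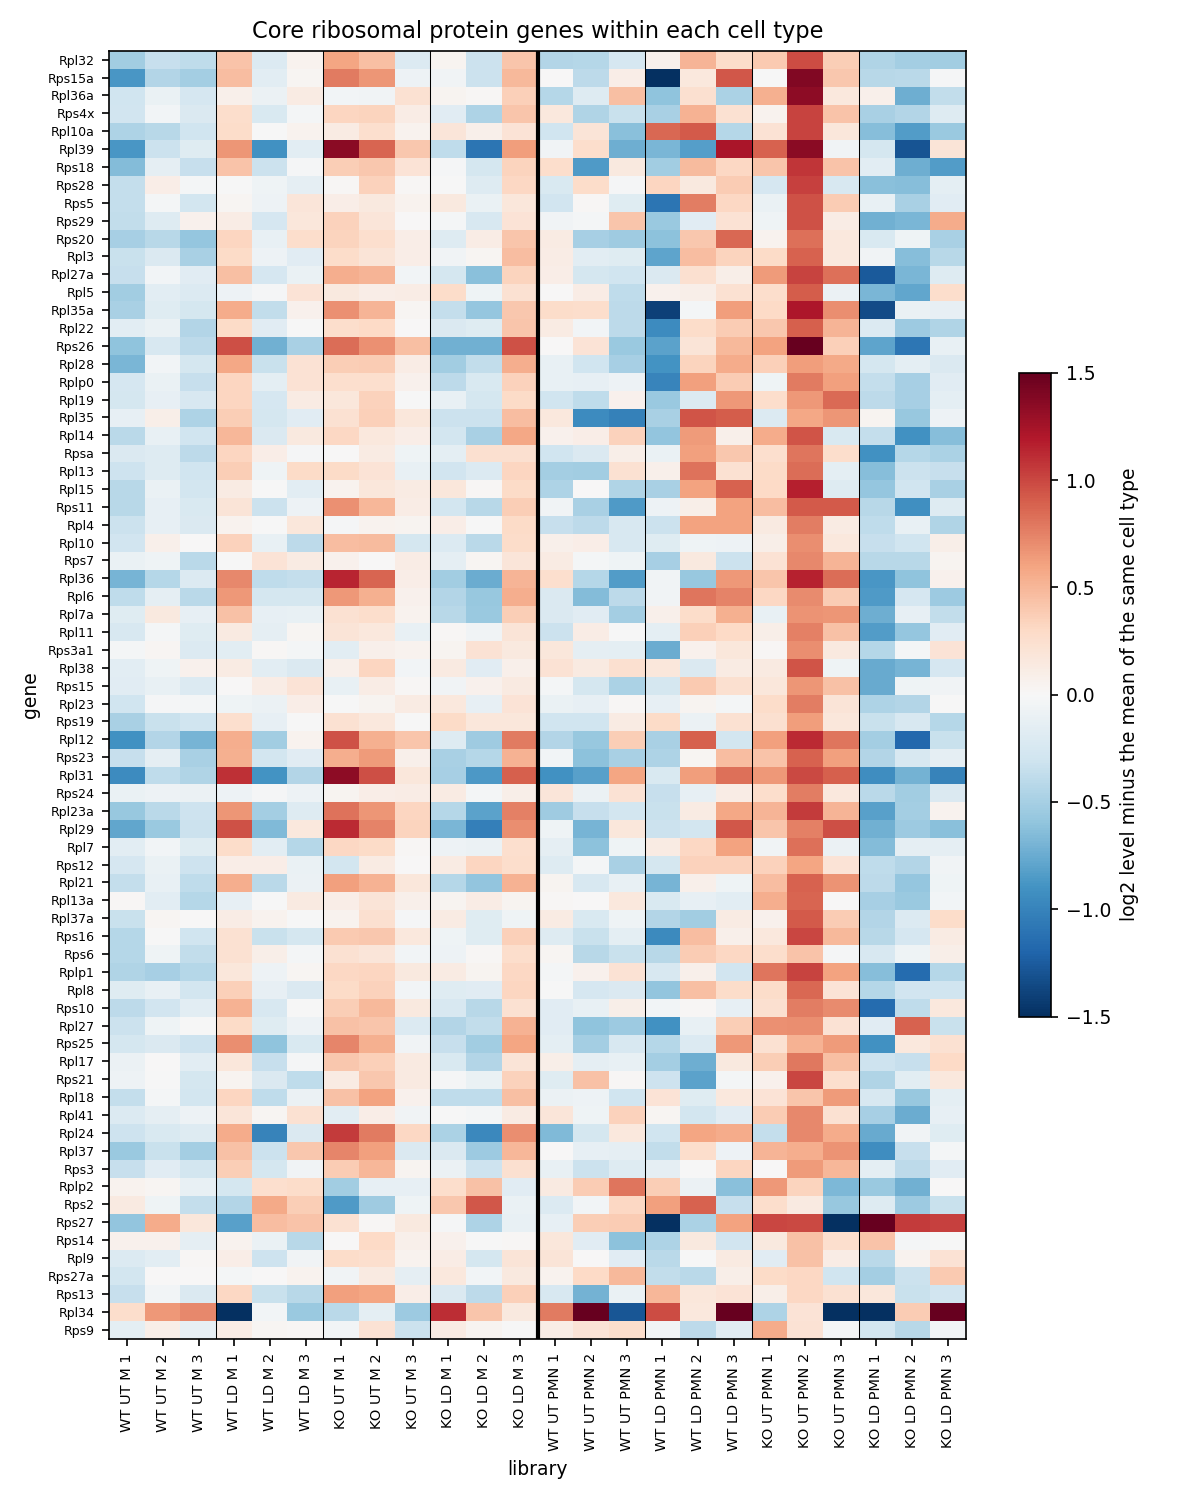
Log2 level of 72 of the 75 core genes (rows) minus its mean over the 12 libraries of the same cell type (colour, limited to 1.5 either way) in the 24 libraries (columns). Lymphodepleted WT replicate 1, untreated KO-labelled replicates 1 and 2 and lymphodepleted KO-labelled replicate 3 are red in most rows of M-MDSCs, and untreated KO-labelled replicate 2 is red in most rows of PMN-MDSCs.

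Other genes of the translation machinery differed between the cell types as well. Of 20 translation factors and partners whose messages carry a TOP motif, 18, 20, 17 and 18 were called higher in M-MDSCs in untreated WT, lymphodepleted WT, untreated KO-labelled and lymphodepleted KO-labelled mice, and 0 lower. Their medians were 1.13, 1.27, 1.09 and 1.61. Of all genes, 22.2%, 19.4%, 20.3% and 23.8% were called higher in these comparisons and 28.3%, 19.9%, 23.6% and 23.6% lower. Eef1a1, which brings aminoacyl-tRNA to the ribosome, differed by 2.10 ± 0.20 in untreated WT, the translocase Eef2 by 1.58 ± 0.17 and the small subunit scaffold Gnb2l1 (now Rack1) by 2.26 ± 0.29. Mitochondrial ribosomal proteins, which serve the separate ribosome of that organelle, were called higher for 48, 29, 31 and 37 of 76 and lower for 2 each time. Among them Mrps25 was higher in M-MDSCs in untreated WT (1.86 ± 0.26), and Mrps15 (−2.44 ± 0.23) and Mrpl33 (−1.67 ± 0.24) were lower.

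Genes for making ribosomes were mixed. The shares of all genes given above, 19.4 to 23.8% called higher and 19.9 to 28.3% lower, apply to these lists as well. Of 14 genes for ribosomal protein chaperones and late assembly, 8, 10, 8 and 12 were called higher in M-MDSCs, with Heatr3 (3.41 ± 0.54), Ltv1 (1.15 ± 0.28) and Bysl (1.17 ± 0.30) in untreated WT. Of 14 genes for RNA polymerase I and its factors, which transcribe ribosomal RNA, 4, 3, 3 and 7 were called higher and 2, 1, 1 and 1 lower, the catalytic subunit Polr1a among the lower ones (−2.11 ± 0.15 in untreated WT). Of 16 genes that link growth signals to ribosome synthesis, 2, 1, 2 and 3 were called higher and 4, 2, 5 and 4 lower. The MYC antagonist Mxd1 was far lower in M-MDSCs (−6.03 ± 0.26), as was Max (−1.54 ± 0.13), and Larp1 was higher (1.41 ± 0.17). Of 12 genes of ribosome rescue, quality control and dormancy, 4, 4, 3 and 5 were called higher and 2 lower each time, with Serbp1, which binds idle ribosomes, at 1.09 ± 0.17.

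Under lymphodepletion these lists showed few calls. In WT M-MDSCs 3 of 76 mitochondrial ribosomal protein genes were called higher, led by Mrpl51 (1.58 ± 0.29), and 1 of 20 TOP factors, the histone chaperone Nap1l1 (0.49 ± 0.12). Both lists lay below the 9.52% of all genes called higher there. In the same comparison the mTORC1 subunit Rptor was lower (−0.57 ± 0.12) and Mlst8, a subunit of both mTOR complexes, higher (0.79 ± 0.21). Nap1l1 was also higher in KO-labelled M-MDSCs (0.41 ± 0.12), where 6.11% of all genes were called higher. In KO-labelled PMN-MDSCs 0 of 20 TOP factors and 0 of 76 mitochondrial ribosomal protein genes were called, against 0.224% of all genes. Their medians were −0.43 and −0.17 beside the −0.76 of the cytosolic genes. Myc, a transcription factor that drives ribosome synthesis, was called lower there (−2.54 ± 0.46, adjusted p = 0.031).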

How the data were processed

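The table covers 24 libraries of spleen M-MDSCs and PMN-MDSCs sorted to a purity above 99%, made from 100 ng of total RNA with NuGen Ovation Mouse RNA-seq and AnyDeplete reduction of ribosomal RNA, per the labels' protocols. STAR 2.5.3a, HTSeq 0.6.1, DESeq2 and the build mm10 are named in the submitters' processing notes, while annotation, strand setting and treatment of multiply mapped reads are among the steps not given in the sources used here. The authors deposited a signal for every gene in every library, namely a normalized read count (reads divided by a size factor of the library). All values above 0 were whole multiples of 1 read (100% within a tolerance of 0.001 reads), so reads were recovered for the alternatives with edgeR 4.0.16 and DESeq2 1.42.0.

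The main test was limma 3.58.1 with a mean-variance trend (R 4.3.3) on log2(normalized count + 1), for genes at 10 or more in at least 3 of the fitted libraries, with Benjamini-Hochberg adjustment over all genes tested and a threshold of 0.05. Fits within a cell type used its 12 libraries, and comparisons between cell types on all 24. Differences are log2 values on that scale, given with their SE, and understate changes of low genes. Each group had 3 mice by the series' design text, and the p-values reflect the variation among them. Counting of total reads limits the precision of low genes. In 2 libraries a read was worth about 1 normalized count. Simulated data with known changes were used to check the fits.

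Genes named were those with set roles (P stalk, 5S particle, Rpsa, Rps3, Rps6, Rps19, Rps25, Rps27a, Rpl13a, Rpl38), the paralogs with their parents, and for each comparison the 4 called members with the largest rise and the 4 with the largest fall (3 and 3 for an interaction) at a level of 100 or more in the higher group, plus the 3 farthest above and below the members' median in each lymphodepletion comparison. Of other lists up to 3 called genes were named. Members and lists were chosen with earlier results of these data known. Alternatives were the pseudocount, the filter, quantile normalization, CPM without Rn45s, edgeR, DESeq2, a fit of all 24 libraries, a replicate block, the members without paralogs, and each library left out in turn. Leaving out the 3 shallowest PMN-MDSC libraries, or the 4 M-MDSC libraries of lowest Rn45s share, was chosen after seeing the data, as was leaving out the PMN-MDSC library highest for most core genes. Start-site windows and gene names are from RefSeq (GRCm38.p6). Levels per kilobase use the joined length of all exons that GENCODE annotates for a gene. Rps27rt was not matched. Values of some single members are not reported here, although they enter the counts and medians.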

Additional observations from a re-analysis of the deposited data

Results flagged for a closer look

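Rplp1 differed between the cell types in its change with lymphodepletion in KO-labelled mice. The difference was tested as an interaction over all 24 libraries with limma and was 1.45 on the log2 scale (SE 0.23, adjusted p = 0.0147), with the higher change in M-MDSCs. The call was lost without the 4 M-MDSC libraries of lowest Rn45s share (adjusted p = 0.615) and under the replicate block (adjusted p = 0.0505). In M-MDSCs Rplp1 changed by −0.11 ± 0.11 and in PMN-MDSCs by −1.55 ± 0.22, each in the fit of its own cell type. In PMN-MDSCs all 3 lymphodepleted libraries (321 to 531) lay below all 3 untreated ones (1090 to 1447), while in M-MDSCs the groups overlapped.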

How the results depend on the processing

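The direction of the members' medians between cell types held under every alternative run, with 70 to 75, 71 to 74, 70 to 74 and 71 to 75 calls on leaving out each library; calls of the other comparisons were few and moved. Calls are given in the order of lymphodepletion in WT M-MDSCs, KO-labelled M-MDSCs, WT PMN-MDSCs and KO-labelled PMN-MDSCs, and label in untreated M-MDSCs. DESeq2 gave 14, 1, 6, 17 and 22 calls, with 1 and 9 for the interaction with label in M-MDSCs and PMN-MDSCs and 5 for the interaction with cell type in KO-labelled mice. A fit of all 24 libraries gave 0 in WT M-MDSCs, 7 and 25 in the PMN-MDSCs, 0 for label in untreated and 1 in lymphodepleted PMN-MDSCs, and 6 for the interaction with label in PMN-MDSCs. CPM without Rn45s gave 12 in WT M-MDSCs, 1 in KO-labelled PMN-MDSCs and a median of 0.51 in WT PMN-MDSCs. edgeR gave 10 and 1 in the same groups, and quantile normalization 12 in WT M-MDSCs and 0 in WT PMN-MDSCs. With no filter there were 0 calls in WT PMN-MDSCs and 3 for label in untreated M-MDSCs, and without paralogs 1 in WT PMN-MDSCs. Without the 3 shallowest PMN-MDSC libraries there were 5 and 0 in the PMN-MDSCs, with a median interaction with label of −1.29. Without the 4 M-MDSC libraries of lowest Rn45s share there were 2, 1 (KO-labelled M-MDSCs) and 3 (label), a median of 0.25 for label, and 0 for the interaction with cell type in KO-labelled mice. The medians between cell types in CPM were 2.37, 2.18, 2.17 and 2.67. With quantile normalization they were 1.77, 1.88 and 2.41 in untreated WT, untreated KO-labelled and lymphodepleted KO-labelled mice. With edgeR the first was 1.73, and without the 4 libraries the untreated KO-labelled one was 1.30. Rpl7l1 turned from −0.02 to 0.56 in CPM in lymphodepleted KO-labelled mice. As a share of all counts the members took 1.45%, 1.85% and 2.07% in untreated WT, lymphodepleted WT and untreated KO-labelled M-MDSCs and 0.351% in untreated WT PMN-MDSCs. Leaving out each library gave 3 to 12, 0 to 23, 0 to 6, 0 to 8 and 1 to 14 calls, 1 to 2 for the interaction with cell type in KO-labelled mice, and a median interaction with label of −1.21 to −0.78 in PMN-MDSCs. The share of all genes called is not given for these alternatives, so their counts do not set the members apart from all genes. The cause of these moves was not tested. The correlation of libraries that share a replicate number had a median of −0.02 in M-MDSCs, −0.01 in PMN-MDSCs and 0.03 between the cell types, where it was over 0.1 in 4 of 12 pairs (1 of 24 with different numbers). Whether equal numbers share an animal is not stated, and the numbers were not used as pairs in the main test. The replicate block gave 1 call in KO-labelled PMN-MDSCs, 3 for label in untreated M-MDSCs and 0 for the interaction with cell type (Rplp1, adjusted p = 0.0505). Low counts limit what can be said of Rpl26, Rpl30, Rps27, Rpl34 and most paralogs.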
